A study of Caenorhabditis elegans with 4 samples.

Results

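The basement membrane genes described here are the rows of the count table whose gene ID carries one of 10 chosen symbols, and 9 of them, out of 20182 rows in all, were found (mig-6, which encodes a papilin, was not analysed here). They encode the type IV collagen chains (emb-9 and let-2), the laminin chains (lam-1, lam-2, lam-3 and epi-1), nidogen (nid-1), SPARC (ost-1) and a secreted ADAMTS metalloprotease (gon-1). The 4 libraries hold total RNA of whole Caenorhabditis elegans at the young adult stage. Wild type, the strain N2, gave 2 of them, and a strain that carries cey-1 (rrr12) together with cey-4 (ok858) gave the other 2 (the mutant below). Both mutated genes encode Y-box proteins, which bind mRNA through a cold shock domain. The animals had hatched overnight and had been raised on plates with OP50 bacteria, and the lysates used for this RNA were also used for ribosome profiling.

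A basement membrane is a thin sheet of extracellular matrix that underlies epithelia and surrounds muscle and gonad. Laminin trimers of an alpha, a beta and a gamma chain form a first network on the cell surface, type IV collagen trimers form a second one that bears tension, and nidogen associates with both. In C. elegans the type IV collagen is made mainly by body wall muscle and is spread from there to other tissues, while SPARC and secreted proteases act on collagen after or during its release. The worm has a single laminin beta chain and a single gamma chain, and the alpha chain, LAM-3 or EPI-1, gives the trimer its identity.

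Total counts were 24717311 to 33009708 per library. The labels' strain showed in the mutated genes: cey-4 had 774 ± 17.4 CPM in N2 and 10.7 ± 0.831 CPM in the mutant, and cey-1 had 137 ± 10.1 and 23.1 ± 2.06 CPM (mean ± SD, n = 2 each). CPM are TMM-scaled counts relative to the library total. Fold changes are log2 values of mutant over N2 with a standard error derived from the test's F value, and a gene counts as higher or lower where the Benjamini-Hochberg adjusted p over the 13944 genes tested was below 0.05 (edgeR quasi-likelihood test). In the mutant 13.1% of all tested genes were higher and 13.3% lower. The labels name no separate cultures behind the libraries of a genotype, so a p-value here measures only the spread between these samples, and that spread may be technical.

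All 9 genes passed the filter on low counts, each through counts in every library. As counted, 7 of the 9 were higher in the mutant and 0 were lower, against 13.1% and 13.3% of all tested genes, and 0 had a negative log2 fold change at an unadjusted p below 0.05. With the DESeq2 test the count was also 7 higher and 0 lower. The median log2 fold change of the 9 was 0.35, beside -0.01 over all tested genes. In 8 of the 9 both mutant libraries lay above both N2 libraries, as in 30.6% of all tested genes, and groups that do not overlap in either direction made up 64.0%. The fold changes of the 9 ran from 1.03 to 1.96. Without either mutant library the number of higher genes was 3 (emb-9, let-2 and gon-1), and it was also 3, the same genes, once the dependence of fold change on transcript length had been removed, as described below.

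**Figure D1:**
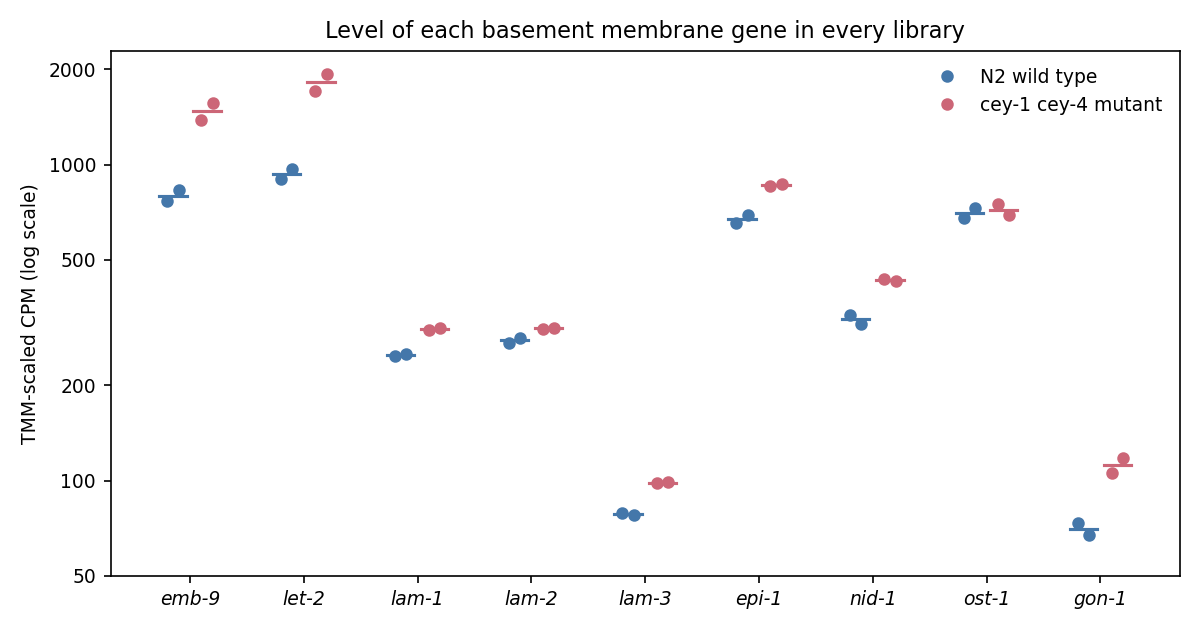
Level of the 9 basement membrane genes in every library, as TMM-scaled CPM on a log axis. Points are single libraries (N2 blue, mutant red) and short lines are group means (n = 2). The groups are far apart for emb-9 and let-2, closer for the laminin chains, and overlap for ost-1.

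The type IV collagen chain genes had the largest changes of the 9. The gene emb-9 (WBGene00001263) encodes an alpha chain of 1759 residues and lies on the minus strand of chromosome III, at chrIII:9336881-9344447 in assembly WBcel235 (Ensembl annotation). Which build the counts were made on is not stated. Its level was 764 and 831 CPM in N2 and 1387 and 1568 CPM in the mutant. Both mutant libraries were well above both N2 libraries. The mean was 797.5 ± 47.0 CPM in N2 and rose by 0.89 ± 0.10 on the log2 scale, to 1477 ± 128 CPM (edgeR adjusted p = 0.0004025).

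The partner chain gene let-2 (WBGene00002280), also coding for 1759 residues, lies on the minus strand at chrX:16380597-16389340. It was counted 26394 and 30136 times in N2 and 57272 and 48090 times in the mutant. In CPM these were 899.6 and 965 in N2 against 1712 and 1937 in the mutant, and the groups did not overlap. The rise was 0.97 ± 0.10 on the log2 scale, from 932 ± 46.5 to 1825 ± 159 CPM (edgeR adjusted p = 0.0002967). The changes of the 2 chains differed by 0.08 ± 0.15, with standard errors combined as independent. Both chains were measured in the same libraries, and this error does not take that pairing into account. Within a library, emb-9 had 0.882 and 0.894 counts per kb of exon for each count per kb of let-2 in N2, and 0.841 and 0.8405 in the mutant. This ratio was slightly lower in both mutant libraries (log2 difference -0.08, exact two-sided permutation p = 0.33, the smallest that 2 against 2 libraries allow). A noncoding RNA annotated on the opposite strand shares 14 bases of exon with let-2, and whether the counting used strand is not stated.

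The laminin chain genes moved less. The only beta chain gene, lam-1 (WBGene00002247, chrIV:5173332-5183746, plus strand), had 248 and 251 CPM in N2 and 299.5 and 305 CPM in the mutant. The groups did not overlap, and the log2 fold change was 0.28 ± 0.09 (edgeR adjusted p = 0.03663). The only gamma chain gene, lam-2 (WBGene00016913, chrX:7143846-7151239, minus strand), had 273 and 282.5 CPM in N2 and 302 and 304 CPM in the mutant. Its mutant values were also the higher ones, but the log2 fold change of 0.13 ± 0.09 did not pass (edgeR adjusted p = 0.3191). Beta to gamma chain transcripts stood at 0.929 and 0.9105 counts per kb in N2 and 1.02 and 1.03 in the mutant, so the ratio was a little higher in both mutant libraries (exact permutation p = 0.33, the smallest possible).

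The laminin alpha chains rose by similar amounts. LAM-3 is the alpha chain best known from the pharynx and nervous system, and its gene (WBGene00002248, chrI:10608466-10621435, plus strand) had 78.8 and 77.7 CPM in N2 and 98.1 and 98.8 CPM in the mutant. The log2 fold change was 0.33 ± 0.09 (edgeR adjusted p = 0.02003). EPI-1, the alpha chain of most other basement membranes, is encoded by the longest gene of the 9 (WBGene00001328, chrIV:10666823-10679291, plus strand, 11247 bases of merged exons). Transcripts of epi-1 were at 655 and 693 CPM in N2 and at 855 and 867 CPM in the mutant. This rise measured 0.35 ± 0.09 on the log2 scale (edgeR adjusted p = 0.01601). The mutant libraries lay above the N2 libraries for both alpha chains. The ratio of epi-1 to lam-3 per kb was 6.99 and 7.49 in N2 and 7.33 and 7.38 in the mutant, and the groups overlapped (log2 difference 0.02, exact permutation p = 1). The sum of the alpha chains stood at 1.59 and 1.64 counts per kb for each of lam-1 in N2 and at 1.70 and 1.69 in the mutant. Of these laminin genes, epi-1 shares 29 bases of exon with K08C7.4 on the opposite strand, a gene with 14 to 21 counts per library.

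Nidogen links laminin and collagen networks in vertebrates and is encoded here by nid-1 (WBGene00003738, chrV:12910107-12917221, plus strand). Its level was 334 and 313 CPM in N2 and 434.5 and 429 CPM in the mutant. The mutant libraries lay close together and above both N2 libraries, a rise of 0.42 ± 0.09 on the log2 scale (edgeR adjusted p = 0.006637). SPARC is a calcium- and collagen-binding glycoprotein secreted by muscle, and its gene ost-1 (WBGene00003893, chrIV:1107396-1110872, plus strand) is the shortest of the 9, with 1153 bases of exon. It had 676 and 726 CPM in N2 and 749.7 and 691 CPM in the mutant. The groups overlapped, and the log2 fold change of 0.04 ± 0.09 did not pass (edgeR adjusted p = 0.7991).

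The protease gene gon-1 is needed for gonad elongation and remodels basement membrane (WBGene00001650, chrIV:9934206-9953433, minus strand). It was counted 2157 and 2104 times in N2 and 3545 and 2932 times in the mutant. In CPM the values were 73.5 and 67.4 in N2 and 106 and 118 in the mutant, which do not overlap. The log2 fold change was 0.67 ± 0.10 (edgeR adjusted p = 0.001112), the third largest of the 9. The sperm gene spe-29 shares 117 bases of exon with gon-1 on the opposite strand and had 31 to 61 counts per library. GON-1 comes from body wall muscle and from the distal tip cells of the gonad. The distal tip cell markers lag-2 and hlh-12, at a summed 0.341 to 0.5445 CPM in N2 and 0.239 to 0.242 CPM in the mutant, were too low to be tested.

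Set per kb of merged exons, the levels of the 9 genes spanned a wide range in N2. Transcripts of ost-1 were the most abundant at 608 CPM per kb, followed by let-2 at 160.0, emb-9 at 142, nid-1 at 64.3 and epi-1 at 59.9. Below these came lam-2 at 46.0, lam-1 at 42.3, gon-1 at 8.96 and lam-3 at 8.27 CPM per kb. No neighbours in this order overlapped between the N2 libraries. Close to each other were let-2 and emb-9, nid-1 and epi-1, lam-2 and lam-1, and gon-1 and lam-3. The closest were nid-1 and epi-1, at 62.3 and 61.6 CPM per kb in N2 replicate 2. In the mutant the order was the same except that lam-1 (51.2 CPM per kb) and lam-2 (50.2 CPM per kb) changed places. The collagen chains came nearer to ost-1 there, with let-2 at 313 and emb-9 at 263 CPM per kb against 625 for ost-1.

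Fold changes followed transcript length in the whole table, and 8 of the 9 genes have long transcripts, with 5.03 to 11.2 kb of merged exons. For tested protein-coding genes of up to 1 kb (3749 genes) the median log2 fold change was -0.20. It was -0.05 in the class of 1 to 2 kb and 0.07 in that of 2 to 4 kb. In the long classes it was 0.17 (4 to 6 kb, 514 genes), 0.23 (6 to 10 kb, 163 genes) and 0.25 (over 10 kb, 50 genes). Of the 727 tested protein-coding genes over 4 kb, 28.2% were higher and 1.10% lower, so the count of higher members has to be read against that share as well. Replicates of a single genotype also differed by length. In the class of 4 to 6 kb the median difference of replicate 2 from replicate 1 was -0.08 in N2 and 0.08 in the mutant, on the log2 scale.

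**Figure D2:**
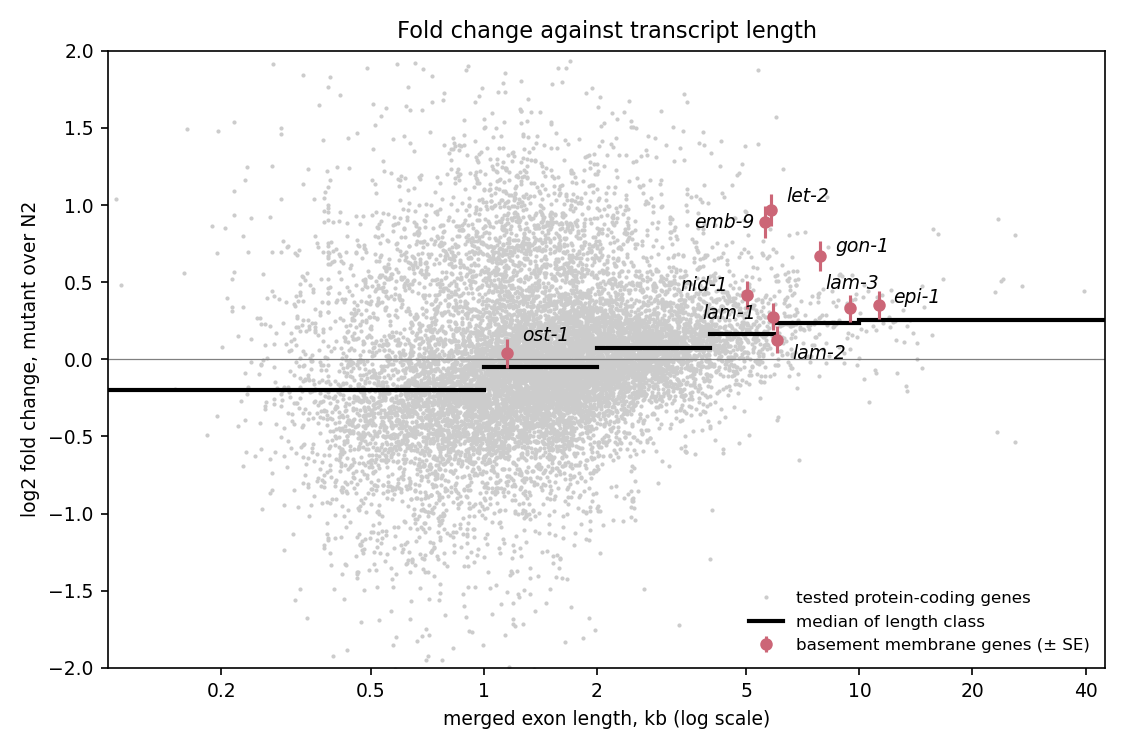
Log2 fold change of mutant over N2 (vertical) against merged exon length in kb on a log axis (horizontal) for tested protein-coding genes (grey), with the median of each length class as a black line and the 9 basement membrane genes in red (bars are standard errors). Grey points beyond a log2 fold change of 2 in either direction are not drawn. The points of let-2, emb-9 and gon-1 stand well above the lines of their classes, and the laminin chains lie near theirs.

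Against this background the 9 genes fell apart into those near the median of their length class and those above it. The class medians lay 0.72 below emb-9, 0.80 below let-2 and 0.435 below gon-1. Of the 514 genes of 4 to 6 kb, 20 had a log2 fold change at or above that of emb-9 and 14 at or above that of let-2, these genes included. Of the 163 genes of 6 to 10 kb, 9 were at or above gon-1. By contrast lam-1, lam-3 and epi-1 were 0.11, 0.10 and 0.10 above their class medians, and 165 of 514, 59 of 163 and 20 of 50 genes of the class were at or above them. The value of lam-2 was 0.11 below its class median (difference -0.11), and 121 of 163 genes were at or above it. With 5901 and 6043 bases, lam-1 and lam-2 are of nearly equal length but fall in different classes, with medians of 0.17 and 0.23. Their distances from the medians therefore also carry the class edge. For nid-1 the excess was 0.25, with 83 of 514 genes at or above it, and for ost-1 it was 0.09 in the class of 1 to 2 kb.

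A fit with each library's trend on exon length removed kept 3 of the 9 genes higher and 0 lower, where 13.3% of all tested genes were higher, 10.2% lower, and 8.53% of the protein-coding genes over 4 kb higher. The log2 fold change became 0.74 ± 0.09 for let-2 (edgeR adjusted p = 0.00048), 0.67 ± 0.09 for emb-9 (0.0008056) and 0.41 ± 0.08 for gon-1 (0.005195). The call of gon-1 was lost when mutant replicate 2 was left out of this fit (log2 fold change 0.38, edgeR adjusted p = 0.069), while those of emb-9 and let-2 were made without any one of the libraries. For nid-1 the value was 0.22 ± 0.08, short of the threshold (edgeR adjusted p = 0.07473). The laminin genes came to 0.05 (lam-1), 0.05 (lam-3), 0.04 (epi-1) and -0.10 (lam-2), none of them called. The median of the 9 was 0.11 in this fit, beside 0.00174 over all tested genes.

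**Figure D3:**
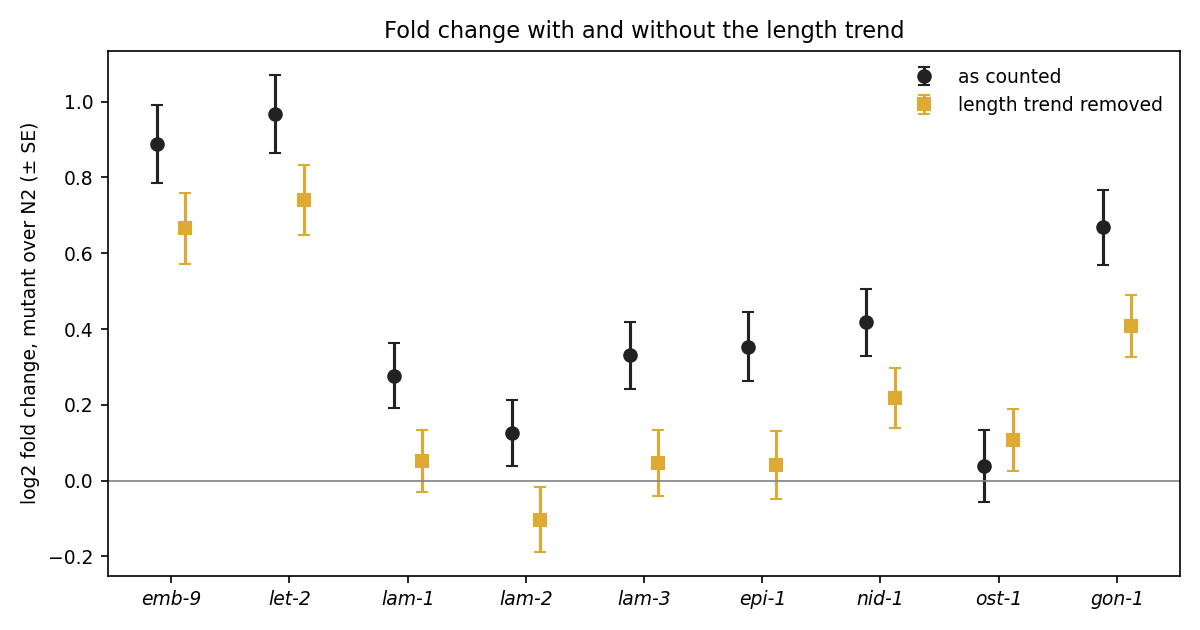
Log2 fold change of mutant over N2 for each of the 9 genes as counted (black circles) and with each library's length trend removed (yellow squares), with standard errors as bars. The values of let-2, emb-9 and gon-1 stay well above 0, those of the laminin chains move to about 0, and that of ost-1 is near 0 in both.

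Chains of nearly equal length can be set side by side without any correction. The merged exons of emb-9, let-2, lam-1 and lam-2 measure 5611, 5826, 5901 and 6043 bases. The log2 fold change of emb-9 exceeded that of lam-1 by 0.61 ± 0.13 and that of lam-2 by 0.76 ± 0.135, and that of let-2 exceeded them by 0.69 ± 0.13 and 0.84 ± 0.135. Here too the standard errors were combined as independent, although the genes share the same libraries. Within a library the summed collagen chains had 3.335 and 3.51 counts per kb for each of the summed beta and gamma laminin chains in N2, and 5.37 and 6.0 in the mutant. All mutant values of this ratio lay above all N2 values, with a log2 difference of 0.73 (exact permutation p = 0.33, the smallest possible). Collagen relative to nid-1 went from 4.38 and 5.04 to 6.26 and 7.17, and relative to ost-1 from 0.496 and 0.498 to 0.832 and 1.02, again with no overlap. The transcript of ost-1 is much shorter than the others, so its ratio also carries the length trend.

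**Figure D4:**
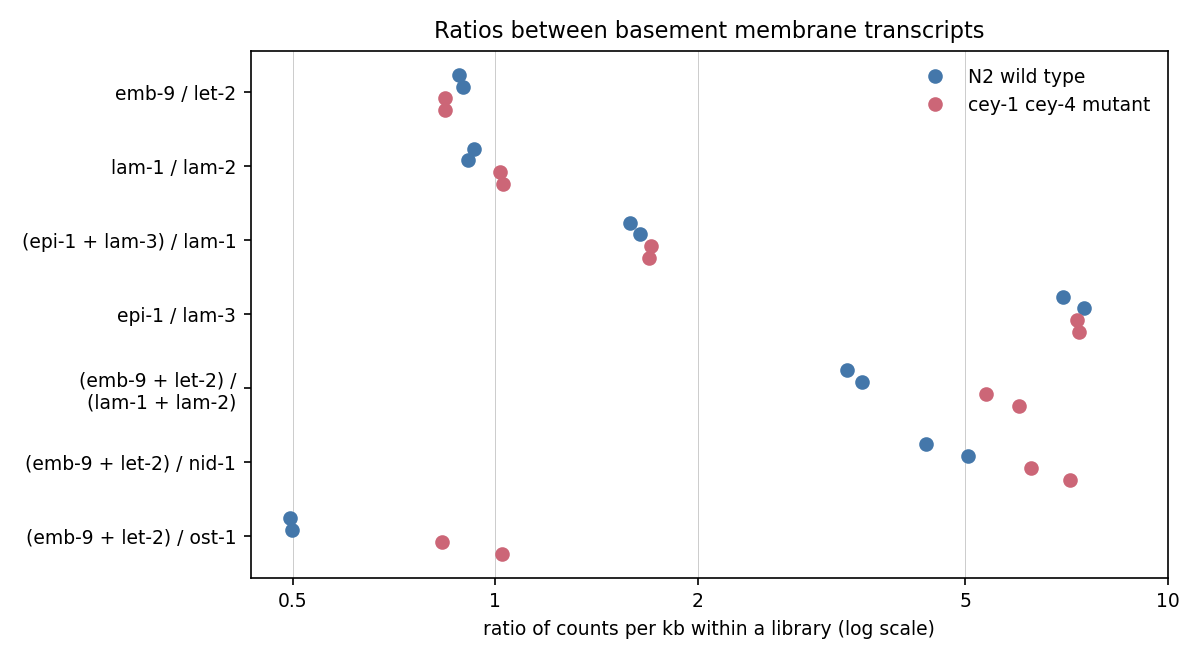
Ratios of counts per kb of merged exons between basement membrane transcripts, 1 point per library on a log axis (N2 blue, mutant red). The groups lie close together for the ratios within the collagen and within the laminin family, and the mutant libraries lie to the right of the N2 libraries for collagen over laminin, nidogen and SPARC.

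Genes of body wall muscle, the main source of type IV collagen, were partly higher too. Of 5 muscle markers 3 were higher and 0 lower: the myosin heavy chain genes unc-54 (0.61 ± 0.105) and myo-3 (0.44 ± 0.09) and the paramyosin gene unc-15 (0.38 ± 0.09). The tropomyosin gene lev-11 (0.07) and the muscle transcription factor gene hlh-1 (-0.21) did not pass. Once the trend with length was taken out, 2 of the 5 were higher, unc-54 (0.38 ± 0.096) and unc-15 (0.26 ± 0.078), and myo-3 was not called (0.21 ± 0.093). Of all tested genes 13.1% were higher as counted and 13.3% with the trend removed. The summed level of the 5 was 5880 to 6167 CPM in N2 and 8549 to 8729 CPM in the mutant, and 0 of them were at 0 counts. Most of this sum came from unc-54, with a mean of 3943 CPM in N2 and 6028 CPM in the mutant. The merged exons of unc-54 and myo-3 are of like length. Summed, the collagen chains had 0.404 and 0.408 counts per kb in N2 for each count per kb of these 2 genes together. In the mutant the values were 0.489 and 0.540. The same ratio for the beta and gamma laminin chains was 0.121 and 0.116 in N2 and 0.0911 and 0.0900 in the mutant, lower in both mutant libraries. As counted, unc-54 and myo-3 rose most of the 5 markers, and lev-11 and hlh-1 did not pass. These ratios are therefore relative to the 2 myosin genes and not to muscle as a whole. Most of the myosin sum is unc-54, at 636 CPM per kb in N2 against 109 for myo-3. Whether muscle content has a part in the rise of collagen was not tested, and in whole animals more cells of a type and more RNA per cell cannot be told apart. Of the pharyngeal muscle markers 2 of 3 were higher, myo-1 (0.51) and myo-2 (0.555), and they remained so with the length trend removed (0.27 and 0.32). All 4 of 4 sperm markers were higher in both fits. Of the other markers as counted, 1 of 4 intestinal, 1 of 4 neuronal and 1 of 4 hypodermal genes were higher, 1 hypodermal and 1 of 3 sheath markers were lower, and 0 of 4 germline, 0 of 3 oocyte and 0 of 2 coelomocyte markers were called. With the length trend removed the neuronal call, unc-104, was lost (0.39 as counted and 0.17 after removal). In that fit 2 of 3 oocyte markers, rme-2 (-0.36) and puf-5 (-0.295), and 1 of 4 germline markers, pgl-1 (-0.34), were lower. Of all tested genes 13.3% were lower as counted and 10.2% with the length trend removed. The 4 embryonic markers summed to 0.2045 to 0.4485 CPM in N2 and 0.299 to 0.403 CPM in the mutant, with hlh-27 at 0 counts in every library.

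Of 48 other listed genes of basement membranes and their attachment 43 were tested. As counted 4 were higher and 6 lower, beside 13.1% and 13.3% of all tested genes, and the median log2 fold change was 0.07. The genes dgn-2, dgn-3, zmp-5 and zmp-6 fell below the filter on low counts, and tln-1 was not analysed here. Removal of the length trend left 2 higher and 5 lower with a median of -0.13, beside 13.3% and 10.2% of all tested genes. The DESeq2 test called 2 higher and 3 lower. When mutant replicate 2 was left out, 0 were higher and 2 lower. Lower calls numbered 3 without mutant replicate 1 and 3 without N2 replicate 2.

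Among 13 further matrix and heparan sulfate proteoglycan genes 2 were higher and 2 lower, beside 13.1% and 13.3% of all tested genes. The hemicentin gene him-4, whose product joins tissues across paired basement membranes, had 578 and 652 CPM in N2 and 873 and 893 CPM in the mutant. Its log2 fold change was 0.52 ± 0.10 as counted and 0.15, not called, with the length trend removed. The syndecan gene sdn-1, a cell surface proteoglycan, was higher (0.41 ± 0.13, and 0.46, still called, with the length trend removed). The peroxidasin gene pxn-2 fell from 37.6 and 42.0 CPM to 28.8 and 26.7 CPM (-0.52 ± 0.11), and peroxidasins cross-link type IV collagen in vertebrates and flies. With the length trend removed its log2 fold change was -0.68. The testican gene test-1, the most abundant of the group at 189 CPM per kb in N2, had a log2 fold change of -0.33 ± 0.105, and -0.15, not called, without the length trend. The perlecan gene unc-52, singled out here after its values were seen, had 1117 and 1157 CPM in N2 and 1199 and 1253 CPM in the mutant. It did not pass as counted (0.11 ± 0.09). With 14.3 kb of merged exons, its log2 fold change reversed to -0.24, not called, with the length trend removed.

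Where 13.1% of all tested genes were higher and 13.3% lower, 1 of 9 tested receptor genes was higher and 0 were lower. It was ddr-1, which encodes a discoidin domain receptor of a family that binds collagen, with 5.90 and 7.015 CPM in N2 and 8.58 and 10.07 CPM in the mutant (0.52 ± 0.15, and 0.42, not called, with the length trend removed). The integrin beta chain gene pat-3, the most abundant receptor gene at 84.2 CPM per kb, had a log2 fold change of -0.09 ± 0.09, and its alpha chain partners ina-1 (0.18 ± 0.09) and pat-2 (0.22 ± 0.09) did not pass. None of the 5 collagen processing genes passed as counted. They were led in abundance by pdi-2 (218 CPM per kb in N2, log2 fold change 0.20 ± 0.09), a subunit of prolyl hydroxylase, and they included let-268, the lysyl hydroxylase gene that type IV collagen depends on (-0.24 ± 0.10, and -0.31, called lower, with the length trend removed).

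The proteases and their inhibitor had 4 lower and 0 higher of 11 tested as counted. Taking out the trend with length left 3 lower and 0 higher. Of all tested genes 13.3% and 10.2% were lower in these fits. The gene cri-2, whose product resembles tissue inhibitors of metalloproteases, had 8.49 and 10.25 CPM in N2 and 4.90 and 3.18 CPM in the mutant (-1.19 ± 0.20). Its exons measure only 531 bases, and with the length trend removed the value was -0.95, still called lower. The matrix metalloprotease genes zmp-4 (-0.68 ± 0.115) and zmp-3 (-0.37 ± 0.11) were lower, as was mig-17 (-0.56 ± 0.18), an ADAMTS-family protease gene of gonad migration whose call was lost without the length trend (-0.515). In the same list the most abundant gene, unc-71, had a log2 fold change of 0.13 ± 0.095. Of 5 tested genes of the integrin attachment complex 1 was higher and 0 were lower, beside 13.1% and 13.3% of all tested genes. The higher gene was unc-97, which encodes the LIM domain protein PINCH (0.355 ± 0.09, and 0.40, still called, with the length trend removed). The most abundant, the kindlin gene unc-112, had 0.02 ± 0.09.

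**Figure D5:**
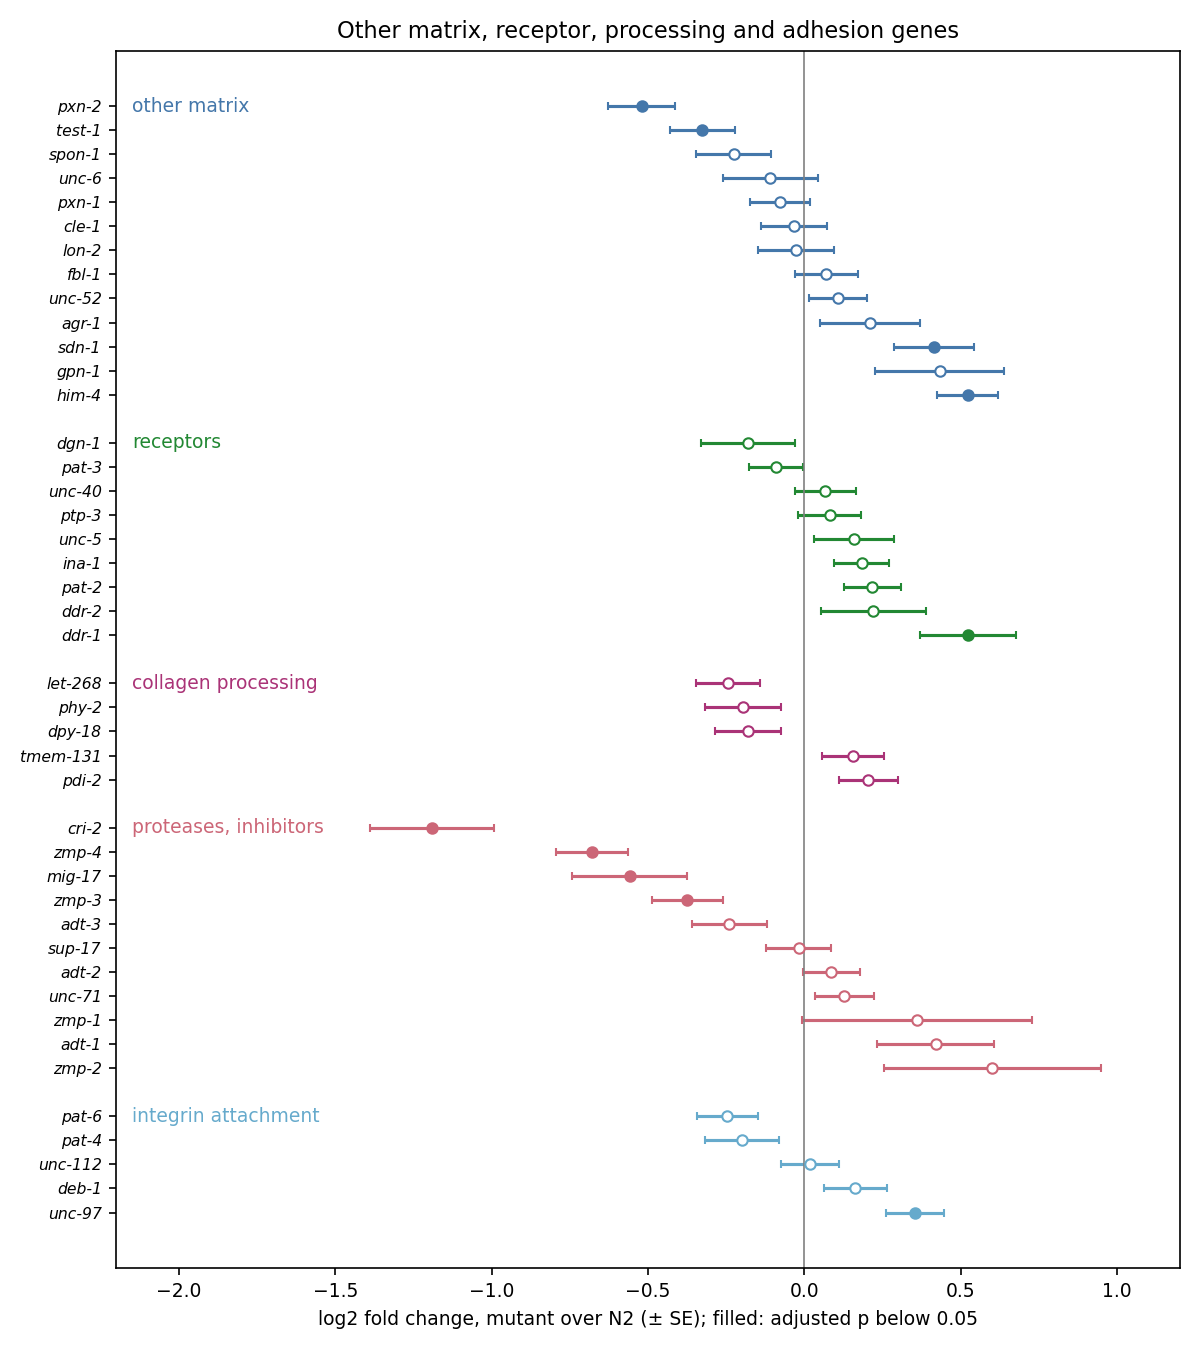
Log2 fold change of mutant over N2 with standard errors for the 43 tested genes of 5 related groups, sorted within each group. Filled points have an adjusted p below 0.05 (edgeR). The points lie on both sides of 0 in each group, and cri-2 is the farthest from 0.

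The genes whose 4 library values were most like the mean profile of the 9 were fasn-1, dig-1 and C34F6.10, out of 566 genes over 4 kb with at least 20 CPM. Likeness was the distance between centred log2 CPM values over 4 libraries, and these genes were at 0.0116, 0.0371 and 0.0491. The fatty acid synthase gene fasn-1 had a log2 fold change of 0.44 ± 0.09, and dig-1, which encodes a giant extracellular matrix protein, also had 0.44 ± 0.09. Removing the length trend ended both calls (0.17 and -0.04).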

How the data were processed

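Per the labels' protocols, total RNA of whole young adults was extracted with Trizol and made into libraries with the ScriptSeq v2 kit. The authors deposited raw counts per gene for 4 libraries. They also deposited log2 values, which served as an alternative. These are the counts scaled to 1 library total for all, with 8 added before the log2 (largest gap 0.000513). Aligner, counter, build and strand use are not stated in the labels or files. Gene IDs were matched to symbols through a name table, and exon lengths are merged exons of the Ensembl annotation of WBcel235 (97.5% of tested genes).

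Counts were tested with edgeR 4.0.16 under R 4.3.3 (quasi-likelihood F test) with TMM scaling, its default expression filter and Benjamini-Hochberg adjustment over 13944 genes. Length trends were removed as an offset from a lowess curve (span 0.3) per library, over genes of at least 1 CPM. Alternatives were other scalings, filters of none and of a mean of 50 counts, DESeq2 1.42.0, limma 3.58.1 on the deposited values, each library left out, and a replicate block. The scripts were tested on simulated data. Counting error is small for the 9 genes at these depths, so their precision is limited by the number of libraries. Some genes of the other lists had few counts, such as mig-17 with 60 to 122 per library, where counting error also matters. The text names all 9 genes found, the called members and the most abundant member per kb of each further group, and the 3 genes of most similar profile. Genes named outside this rule include ina-1, pat-2, let-268 and unc-52. Members, lists and tests were chosen with earlier results of these data known. Permutation tests were planned only for the ratios of emb-9 to let-2 and of epi-1 to lam-3, and those of other ratios were added. Figures were drawn with matplotlib 3.10.9.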

Additional observations from a re-analysis of the deposited data

How the results depend on the processing

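With 2 libraries per group, precision is set by the spread of those libraries. The calls of emb-9 and let-2 were made under every alternative run, with log2 fold changes of 0.56 to 0.99 and of 0.645 to 1.07. Other scalings, other filters, DESeq2 and limma each gave 7 higher members. The count was 3 with the length trend removed, with that removal on coding length (added after seeing the data), and with the trend removed together with the replicate block. Fits that removed the trend and also left out 1 library were not planned either. The replicate block alone gave 6, as lam-1 was lost (0.28, edgeR adjusted p = 0.08482). Replicate numbers share no stated batch, and the differences between replicates of the 2 genotypes correlated at -0.0425, so the pairing rests on numbers only. Leaving out 1 library gave 3 to 7 higher members, and 2 to 3 with the length trend removed as well. For all genes it gave 961 to 2042 higher and 447 to 2307 lower genes, and for the related genes 0 to 6 higher and 2 to 7 lower. The related genes had 2 higher with the length trend removed, and 2 higher and 3 lower with DESeq2.

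The log2 fold change of lam-2 reversed to -0.10 with the length trend removed, with or without the replicate block, and to -0.089 on coding length. With the trend removed and 1 library left out it was -0.174, -0.025, -0.144 and -0.060 without N2 replicates 1 and 2 and mutant replicates 1 and 2. In those fits lam-1 reached -0.0055 and lam-3 reached -0.0036, and epi-1 reached -0.052 and -0.0048. As counted, ost-1 ran from -0.012 (without N2 replicate 1) over -0.0073 (without mutant replicate 1) to 0.127 when 1 library was left out. The cause of these shifts was not tested.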

Other observations

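In the length class of emb-9 and let-2, 385 genes had at least 20 CPM, and 8 of them, these 2 included, had a log2 fold change at or above that of emb-9. The other 6 were picked out after their values were seen. They were T05A12.4 (1.88 ± 0.10), the ABC transporter genes abt-5 (1.26 ± 0.11) and abt-1 (1.19 ± 0.11), W03F11.4 (1.08 ± 0.09), Y39B6A.30 (1.05 ± 0.11) and Y113G7C.1 (0.92 ± 0.10). In N2 abt-5 (15.4 CPM) and Y39B6A.30 (17.1 CPM) were below 20 CPM and passed the cut only through the mutant libraries. The cut thus favours genes that rose, and the count of 8 is no rank among genes at that level in N2. None of these 6 reached the level of the collagen chains. W03F11.4 rose from 56.9 and 55.1 CPM in N2 to 118.8 and 117.9 CPM in the mutant, and abt-1 from 21.9 and 20.3 to 46.1 and 50.35 CPM. Each of the 8 was also called higher with the length trend removed. They were chosen for their large rises in the same data, so this is no separate check of those rises.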
